A study of Homo sapiens with 6 samples.

Results

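The genes described here are 37 human genes that act at the replication fork or supply it with deoxynucleotides (dNTPs). They were taken by symbol from the 58174 genes of the deposited expression table. All 37 had a mean of at least 0.5 FPKM (fragments scaled to gene length and library size) over the 6 libraries, so all of them were among the 16006 genes tested. PolyA-selected RNA had been sequenced from A549 cells, an established line derived from a lung adenocarcinoma. Ctrl was the parental A549 population (3 libraries), and MIR21-KO was A549 in which the MIR21 locus had been deleted by CRISPR/Cas9 with a pair of guide RNAs (3 libraries). All cells were grown in the same serum-containing medium, received no further treatment and were harvested 48 h after seeding. MIR21-KO cells were grown from single sorted cells, whereas Ctrl cells had not passed through such a bottleneck. How many clones the 3 MIR21-KO libraries represent is not given in the sources used here, so differences between clones and effects of the deletion cannot be told apart. The labels do not say whether the libraries came from separate cultures, and FDRs therefore measure only the spread between these libraries.

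During S phase the replicative helicase, made of the MCM hexamer with CDC45 and the GINS complex, unwinds DNA ahead of the fork. Polymerase alpha-primase lays down primers, polymerases epsilon and delta extend them, and the clamp PCNA, loaded by replication factor C, keeps these polymerases on the template, while the single-stranded stretches are covered by replication protein A. Okazaki fragments are then trimmed and sealed, CAF-1 places histones on the new DNA, and ribonucleotide reductase, thymidylate synthase and thymidine kinase deliver the dNTPs. Many of these genes are known targets of E2F transcription factors and are expressed mainly in cycling cells. In bulk RNA, fewer cells in S phase and less RNA per cell cannot be told apart.

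The deleted gene encodes miR-21-5p, whose mature form is shown with its seed (bases 2 to 8, which pair with target mRNAs) in capitals. It lies at chr17:59841273-59841294 (plus strand, GRCh38), and the sequence is from RefSeq.
hsa-miR-21-5p: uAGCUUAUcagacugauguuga
MIR21 itself was listed at 0 FPKM in all 6 libraries and thus could not serve as a check of the labels. VMP1, the gene in which MIR21 lies, stood at 70.7 to 77.8 FPKM in Ctrl and at 134.6 to 148.5 FPKM in MIR21-KO. The heptamer complementary to the seed, ATAAGCT, occurred in the longest annotated 3′ UTR of 3 of the 37 members (8.11%), compared with 1665 of 18897 protein-coding genes (8.81%). The 3 sites are shown because they are the only such matches among the members. Capitals mark the heptamer, and in none of the sites was it followed by an A.
GINS1, chr20:25446343-25446364, plus strand: tttttctaATAAGCTgtatctg
RPA2, chr1:27891903-27891924, minus strand: agttacaaATAAGCTtgttaca
DUT, chr15:48342515-48342536, plus strand: aatcttgcATAAGCTgaactaa
The median log2 fold change (log2FC, MIR21-KO over Ctrl) was -0.36 for these 3 genes and -0.71 for the other 34.

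Total reads recovered from the deposited values ranged from 10631667 to 14345209 per library, and each member was covered by 127 to 6291 reads in a library. For a gene of 1 kb, 1 read corresponded to 0.0731 to 0.0930 FPKM. The keratins KRT7, KRT8, KRT18 and KRT19 marked the cells as epithelial in all libraries, whereas EPCAM, another epithelial marker, was low (0.389 to 1.65 FPKM). Summed leukocyte and endothelial markers did not exceed 0.286 FPKM in any library. Fibroblast markers, mostly COL1A1, summed to 3.43 to 3.69 FPKM in Ctrl and 4.01 to 5.33 FPKM in MIR21-KO, and their part in the results was not tested.

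All 37 members had a negative log2 fold change in MIR21-KO cells, compared with 51.5% of all genes tested. At an FDR under 0.01 (limma, Benjamini-Hochberg over all 16006 genes), 23 of the 37 were called lower, where 8.38% of all genes tested were called lower. None was called higher, against 7.66% of all genes. The count of higher members was also 0 at an unadjusted p under 0.05 and 0 with voom on recovered reads. At the looser FDR of 0.05, 33 members were lower (16.8% of all genes). In 34 members every MIR21-KO library lay below every Ctrl library, a pattern that 25.2% of all genes showed. The median log2 fold change was -0.67 for the members and -0.02 for all genes. The MIR21-KO mean ranged from 47.0% of the Ctrl mean for CDC45 to 97.2% for DUT, with a median of 63.5%, and 5 members stood at or below 0.5 of Ctrl (4.84% of all genes). Summed over the members, FPKM was 1261 ± 33.5 in Ctrl and 894.1 ± 77.5 in MIR21-KO (mean ± SD, n = 3 libraries, as for all such values).

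**Figure D1:**
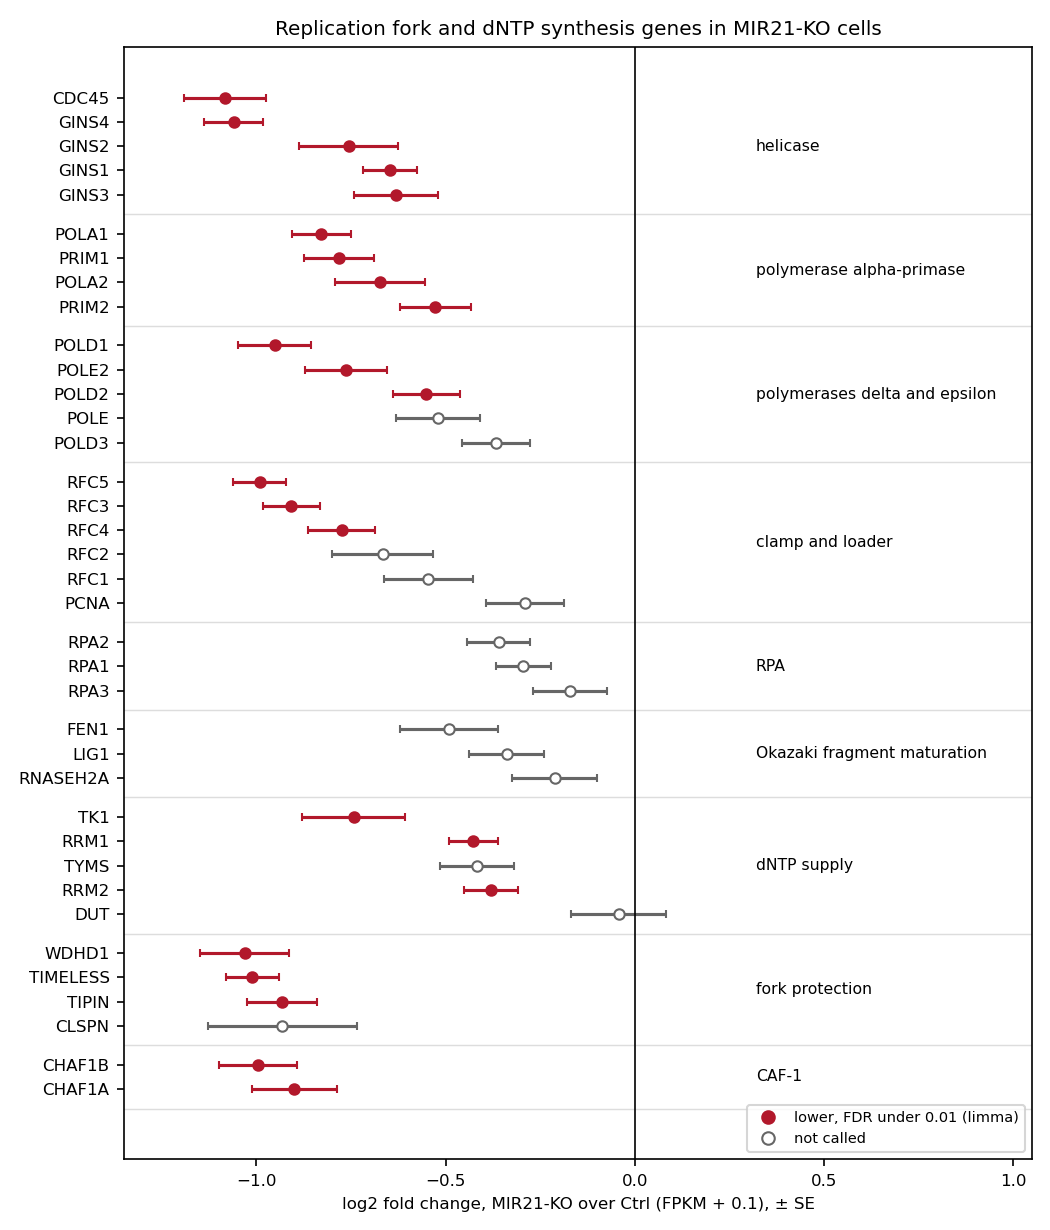
Log2 fold change (MIR21-KO over Ctrl, on the log2(FPKM + 0.1) scale) of the 37 members with its standard error, grouped by role. Filled red points are the 23 members called lower at an FDR under 0.01 and open points the 14 that were not called, and all points lie left of 0.

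These counts changed when a library was left out, while the median log2 fold change of the members lay between -0.76 and -0.62. Each such fit also has fewer libraries in a group, and the part of this in the counts was not tested. Without Ctrl replicate 1, 2 or 3 the count of members called lower was 11, 12 and 10, respectively, and without MIR21-KO replicate 1, 2 or 3 it was 22, 10 and 27. The share of all genes called lower moved as well, to 2.41%, 2.5% and 2.3% without Ctrl replicates 1 to 3 and to 7.68%, 2.37% and 11.3% without MIR21-KO replicates 1 to 3. In each of these 6 fits 9 members were called lower, namely CDC45, GINS4, POLA1, POLD1, RFC3, RFC5, TIMELESS, TIPIN and CHAF1B. All were genes whose MIR21-KO mean was at or below 55.9% of Ctrl. With the exception of POLA1, which missed the threshold in the replicate block (FDR = 0.0107), these genes were called under all alternatives tried. In that block, which fits the replicate number as a factor, 8 members were called lower (1.7% of all genes).

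The helicase genes among the members, CDC45 and GINS1 to GINS4, were lower without exception, and 5 of 5 were called. Their median log2 fold change was -0.76. Genes of the MCM hexamer are not among the members. CDC45 (chr22:19479459-19520612, plus strand, GRCh38), which joins the MCM hexamer to the active helicase, was the most reduced of all members. Its level was 15.6, 15.5 and 14.2 FPKM in Ctrl replicates 1 to 3 and 7.76, 7.40 and 6.12 FPKM in MIR21-KO replicates 1 to 3. The groups were far apart, and the log2 fold change was -1.08 ± 0.11 (SE, FDR = 0.000826). GINS4, a subunit of the GINS complex, stood at 13.4, 14.2 and 13.0 FPKM in Ctrl and at 6.41, 6.79 and 6.17 FPKM in MIR21-KO (log2FC -1.06 ± 0.08, FDR = 0.000256). The least reduced subunit was GINS3 (chr16:58295080-58406144, plus strand), with 5.19, 5.66 and 6.12 FPKM in Ctrl and 3.71, 3.86 and 3.28 FPKM in MIR21-KO. Its groups did not overlap either (log2FC -0.63 ± 0.11, FDR = 0.0064). GINS1, which holds a seed match, and GINS2 lay in between, at 63.8% and 59.5% of Ctrl. In this group 3 calls were lost in some of the fits that left out a library. GINS1 was not called without MIR21-KO replicate 2 (FDR = 0.0108), where its log2 fold change was -0.64 against -0.65 in the reported fit. GINS2 kept its call only in the fits that left out MIR21-KO replicate 1 or 3 (FDR up to 0.0322 in the other fits). GINS3 kept its call only without MIR21-KO replicate 3 (FDR up to 0.0336 in the others).

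The polymerase alpha-primase complex, which makes the primers, was lower in all 4 subunits (median log2 fold change -0.73). POLA1 (chrX:24693919-24996986, plus strand), the catalytic DNA polymerase subunit, was measured at 10.9, 9.86 and 10.0 FPKM in Ctrl and at 5.62, 5.74 and 5.84 FPKM in MIR21-KO. The MIR21-KO libraries were nearly identical, and the log2 fold change was -0.83 ± 0.08 (FDR = 0.000655). PRIM2 (chr6:57314805-57646849, plus strand), the large primase subunit, was reduced the least, from 6.80, 6.26 and 6.14 FPKM to 4.53, 4.11 and 4.59 FPKM (log2FC -0.53 ± 0.09, FDR = 0.00657). Its catalytic partner PRIM1 fell to 58.1% and the accessory subunit POLA2 to 62.8% of Ctrl. PRIM1 lost its call whichever Ctrl library was left out (FDR up to 0.0111). POLA2 lost it whichever Ctrl library or if MIR21-KO replicate 2 was left out (FDR up to 0.0356), and for PRIM2 this was also so without MIR21-KO replicate 1 (FDR up to 0.0352).

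Of the polymerase delta and epsilon subunits, 3 of 5 were called lower. POLD1 (chr19:50384204-50418016, plus strand), the catalytic subunit of polymerase delta, showed 21.4, 21.9 and 21.1 FPKM in Ctrl and 11.5, 12.1 and 9.68 FPKM in MIR21-KO. Hence it fell to 51.7% of Ctrl (log2FC -0.95 ± 0.10, FDR = 0.000898). POLD2, the accessory subunit bound directly to POLD1, fell to 68.3% (log2FC -0.55 ± 0.09, FDR = 0.0045), and POLE2, an accessory subunit of polymerase epsilon, to 58.3% (-0.76 ± 0.11, FDR = 0.00289). Both lost the call whichever Ctrl library was left out, and also without MIR21-KO replicate 2, with FDRs of up to 0.0281 and 0.0159. The remaining members of this group were not called. POLD3 (chr11:74493851-74669117, plus strand), a further delta subunit, had 9.66, 10.0 and 8.58 FPKM in Ctrl and 7.09, 7.58 and 7.15 FPKM in MIR21-KO. Its groups did not overlap, but the difference was small (log2FC -0.37 ± 0.09, FDR = 0.0211). POLE (chr12:132623753-132687365, minus strand), the catalytic subunit of polymerase epsilon, had 6.57, 6.08 and 7.17 FPKM in Ctrl and 4.07, 4.82 and 4.85 FPKM in MIR21-KO. Again the groups were separate while the FDR of 0.0136 missed the threshold (log2FC -0.52 ± 0.11).

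Of PCNA and the clamp loader, 3 of 6 genes were called lower, all of them loader subunits. Replication factor C is a pentamer of RFC1 to RFC5 that opens the PCNA ring and closes it around DNA. RFC5 (chr12:118013588-118033130, plus strand) was reduced the most, from 23.5, 21.9 and 22.5 FPKM in Ctrl to 11.9, 11.1 and 11.0 FPKM in MIR21-KO (log2FC -0.99 ± 0.07, FDR = 0.000224). RFC3 fell to 53.1% (log2FC -0.91 ± 0.08, FDR = 0.000392) and RFC4 to 58.2% of Ctrl (-0.77 ± 0.09, FDR = 0.0013). The call on RFC4 was lost without Ctrl replicate 3 or MIR21-KO replicate 2 (FDR up to 0.0111). RFC2 (chr7:74231499-74254458, minus strand) had 28.8, 31.3 and 29.3 FPKM in Ctrl and 21.5, 20.0 and 15.2 FPKM in MIR21-KO. Its log2 fold change of -0.67 ± 0.13 was larger than that of several called genes, yet MIR21-KO replicate 3 stood well below the other two and the FDR was 0.0108. RFC1 (chr4:39287456-39366375, minus strand), the large subunit, showed the opposite order within the knockout, with 5.99, 5.99 and 7.40 FPKM in MIR21-KO against 10.2, 9.59 and 8.59 FPKM in Ctrl (log2FC -0.55 ± 0.12, FDR = 0.0138).

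PCNA (chr20:5114953-5126626, minus strand) was by far the most abundant member and was not called. It reached 310.3, 336.7 and 312.7 FPKM in Ctrl and 287.4, 265.0 and 234.8 FPKM in MIR21-KO. All MIR21-KO libraries lay below all Ctrl libraries, but they also spread widely (log2FC -0.29 ± 0.10, FDR = 0.0734). PCNA made up 25.0% to 25.9% of the summed FPKM of the members in Ctrl and 28.8% to 29.7% in MIR21-KO.

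None of the genes for replication protein A and for Okazaki fragment maturation was called, by limma at an FDR under 0.01. RPA1 (chr17:1829702-1900082, plus strand), the large subunit that holds single-stranded DNA, had 39.0, 39.3 and 36.9 FPKM in Ctrl and 30.5, 33.2 and 30.3 FPKM in MIR21-KO (log2FC -0.29 ± 0.07, FDR = 0.0216). RPA2 (chr1:27891524-27914746, minus strand), the subunit phosphorylated under replication stress, had 31.0, 32.9 and 32.5 FPKM and 27.1, 25.2 and 22.8 FPKM, respectively (-0.36 ± 0.08, FDR = 0.0183). Both had separate groups. By contrast, RPA3 (chr7:7636518-7718607, minus strand), the small subunit, overlapped between groups, with 19.6, 21.7 and 21.8 FPKM in Ctrl and 21.0, 17.5 and 17.6 FPKM in MIR21-KO (-0.17 ± 0.10, FDR = 0.224).

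The flap endonuclease FEN1 (chr11:61792637-61797244, plus strand), which trims Okazaki fragments, was measured at 66.7, 69.9 and 70.4 FPKM in Ctrl and at 56.8, 51.6 and 40.4 FPKM in MIR21-KO. Each MIR21-KO library lay below every Ctrl library, with replicate 3 the lowest (log2FC -0.49 ± 0.13, FDR = 0.0288). DNA ligase 1, encoded by LIG1 (chr19:48115445-48170603, minus strand), had 17.5, 18.8 and 19.7 FPKM in Ctrl and 16.2, 15.1 and 13.1 FPKM in MIR21-KO (-0.34 ± 0.10, FDR = 0.0409). RNASEH2A (chr19:12806556-12815201, plus strand), the catalytic subunit of the RNase H2 that removes ribonucleotides from DNA, had 21.1, 19.6 and 20.9 FPKM in Ctrl and 19.9, 18.5 and 15.1 FPKM in MIR21-KO. Here the groups overlapped (-0.21 ± 0.11, FDR = 0.199). Of these 6 genes, 4 had an unadjusted p under 0.05, and FEN1 was the 1 gene called by voom or, with limma, once MIR21-KO replicate 3 was left out.

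Among the genes of dNTP supply, both subunits of ribonucleotide reductase and thymidine kinase 1 were called lower. TK1 (chr17:78174075-78187233, minus strand), the S phase-specific kinase that salvages thymidine, was reduced the most, from 125.6, 144.8 and 133.6 FPKM in Ctrl to 94.97, 81.0 and 67.2 FPKM in MIR21-KO. Even the highest MIR21-KO library was below the lowest Ctrl library (log2FC -0.74 ± 0.14, FDR = 0.00785). RRM2 (chr2:10120698-10131419, plus strand), the reductase subunit that limits activity over the cell cycle, fell from 35.9, 38.7 and 34.4 FPKM to 27.9, 27.9 and 27.8 FPKM. The fall was modest but the MIR21-KO libraries hardly differed (log2FC -0.38 ± 0.07, FDR = 0.00806). RRM1, the large catalytic subunit, fell to 74.4% of Ctrl (log2FC -0.43 ± 0.06, FDR = 0.00363). TK1 and RRM1 lost their calls whichever Ctrl library was left out, and also without MIR21-KO replicate 2, with FDRs of up to 0.0370 and 0.0277. RRM2 kept its call only without MIR21-KO replicate 3 (FDR up to 0.0428 in the other fits).

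TYMS and DUT, which make dTMP and its precursor dUMP, respectively, were not called. TYMS (chr18:657604-673578, plus strand) had 84.2, 86.5 and 91.8 FPKM in Ctrl and 73.0, 65.0 and 59.1 FPKM in MIR21-KO (log2FC -0.42 ± 0.10, FDR = 0.0183). Its groups were separate. However, 39.1% of its exonic bases are shared with ENOSF1 on the opposite strand, and the strand setting of the counting is not given. ENOSF1 itself was low in both groups (6.03 and 5.45 FPKM). DUT (chr15:48331011-48343373, plus strand) was the member closest to its Ctrl level, with 29.3, 36.0 and 29.95 FPKM in Ctrl and 34.7, 31.2 and 26.7 FPKM in MIR21-KO. The groups overlapped, and the log2 fold change of -0.04 ± 0.13 had an FDR of 0.823. It turned positive without Ctrl replicate 2 (0.05), without MIR21-KO replicate 3 (0.06) and with GC and length trends removed (0.03).

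Of the fork protection genes 3 of 4 were called lower, with a median log2 fold change of -0.97. TIMELESS (chr12:56416373-56449403, minus strand) and TIPIN form a complex that travels with the fork. TIMELESS had 33.6, 31.2 and 31.0 FPKM in Ctrl and 15.2, 16.1 and 16.0 FPKM in MIR21-KO. The log2 fold change was -1.01 ± 0.07 and had the lowest FDR of all members (0.000204). TIPIN (chr15:66336206-66386746, minus strand) fell alongside, from 10.6, 11.4 and 9.53 FPKM to 5.65, 5.31 and 5.37 FPKM (-0.93 ± 0.09, FDR = 0.000774). WDHD1 (chr14:54938950-55027105, minus strand), which ties polymerase alpha to the helicase, fell from 8.86, 8.30 and 8.50 FPKM to 3.74, 3.88 and 4.87 FPKM (-1.03 ± 0.12, FDR = 0.00139). It was not called without Ctrl replicate 1, Ctrl replicate 3 or MIR21-KO replicate 2 (FDR up to 0.0108). CLSPN (chr1:35720218-35769967, minus strand), the adaptor for checkpoint kinase CHK1, had 8.81, 5.84 and 7.80 FPKM in Ctrl and 3.13, 3.83 and 4.63 FPKM in MIR21-KO. Relative to its mean it was the most variable member in Ctrl, and with a log2 fold change of -0.93 ± 0.20 its FDR of 0.0129 missed the threshold.

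CAF-1 was lower in both subunits that are among the members. CHAF1B (chr21:36385378-36419015, plus strand) had 8.86, 7.74 and 8.37 FPKM in Ctrl and 4.49, 4.13 and 3.75 FPKM in MIR21-KO (log2FC -0.997 ± 0.10, FDR = 0.000911). CHAF1A (chr19:4402662-4445018, plus strand), the large subunit, was almost the same in all Ctrl libraries (16.4, 16.3 and 16.4 FPKM) and fell to 10.1, 8.68 and 7.59 FPKM (-0.90 ± 0.11, FDR = 0.00184). The call on CHAF1A was lost whichever Ctrl library was left out, and also without MIR21-KO replicate 2 (FDR up to 0.0137).

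**Figure D2:**
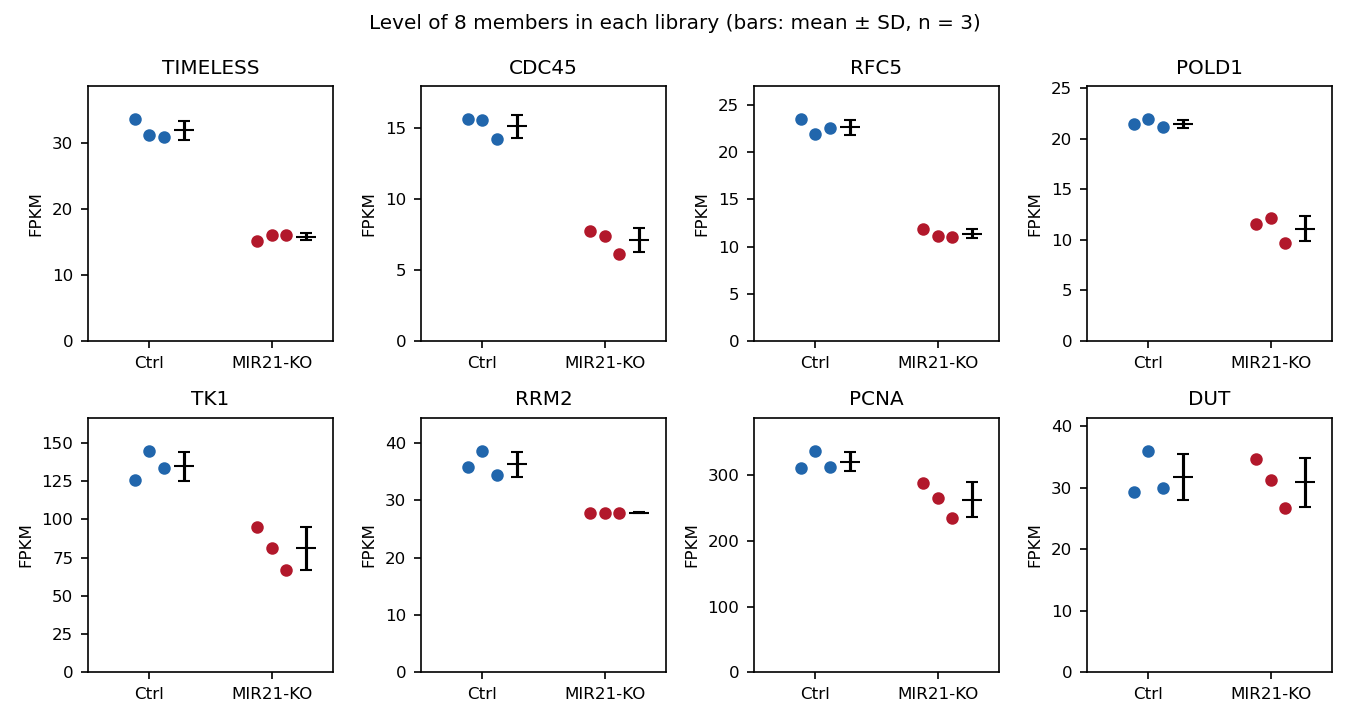
FPKM of 8 members in each library (dots, 3 Ctrl in blue and 3 MIR21-KO in red), with the mean and SD of each group (n = 3) and axes that start at 0. TIMELESS, CDC45, RFC5 and POLD1 lie at 47.0% to 51.7% of Ctrl, TK1, RRM2 and PCNA at 60.2%, 76.7% and 82.0%, and the groups of DUT overlap.

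By role, the median level in MIR21-KO was 50.6% of Ctrl for fork protection, 51.6% for CAF-1, 59.5% for the helicase, 60.4% for polymerase alpha-primase, 60.9% for the clamp and its loader, 68.3% for polymerases delta and epsilon, 75.1% for dNTP supply, 79.2% for Okazaki fragment maturation and 81.5% for RPA. These roles hold 2 to 6 genes each, and the differences between them were not tested. Across the 37 members the fold changes of genes abundant in Ctrl tended to be closer to 0 (Pearson r = 0.36, Spearman rho = 0.37 between log2 Ctrl FPKM and log2 fold change). Both measures share the Ctrl libraries, and genes are not independent replicates. Between GC content and fold change r was -0.01 and rho 0.08, and with GC and length trends removed they were -0.29 and -0.22.

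Within the knockout the libraries were not equally low. The median of the members, relative to the Ctrl mean, was -0.59, -0.65 and -0.77 on the log2 scale in MIR21-KO replicates 1 to 3, and 24 of the 37 members were lowest in replicate 3. Below every Ctrl library stood 34, 36 and 37 members, respectively. The difference between MIR21-KO replicates 3 and 1 varied with GC content over the 37 members (r = -0.55, rho = -0.63), as it did over the 15955 genes tested with a GC value (r = -0.28, rho = -0.43). GC-rich members such as TK1 and RFC2 were lower in replicate 3, and GC-poor members such as WDHD1 and RFC1 were higher. Once dependence on GC content and length had been taken out of each library, the relation was small (r = 0.15, rho = 0.07), but 23 members still were lowest in replicate 3. With the trends removed, 32 members were called lower (13.3% of all genes). They held all 23 called before and, in addition, POLE, RFC1, RFC2, RPA1, RPA2, FEN1, LIG1, TYMS and CLSPN, while POLD3, PCNA, RPA3, RNASEH2A and DUT were not called.

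**Figure D3:**
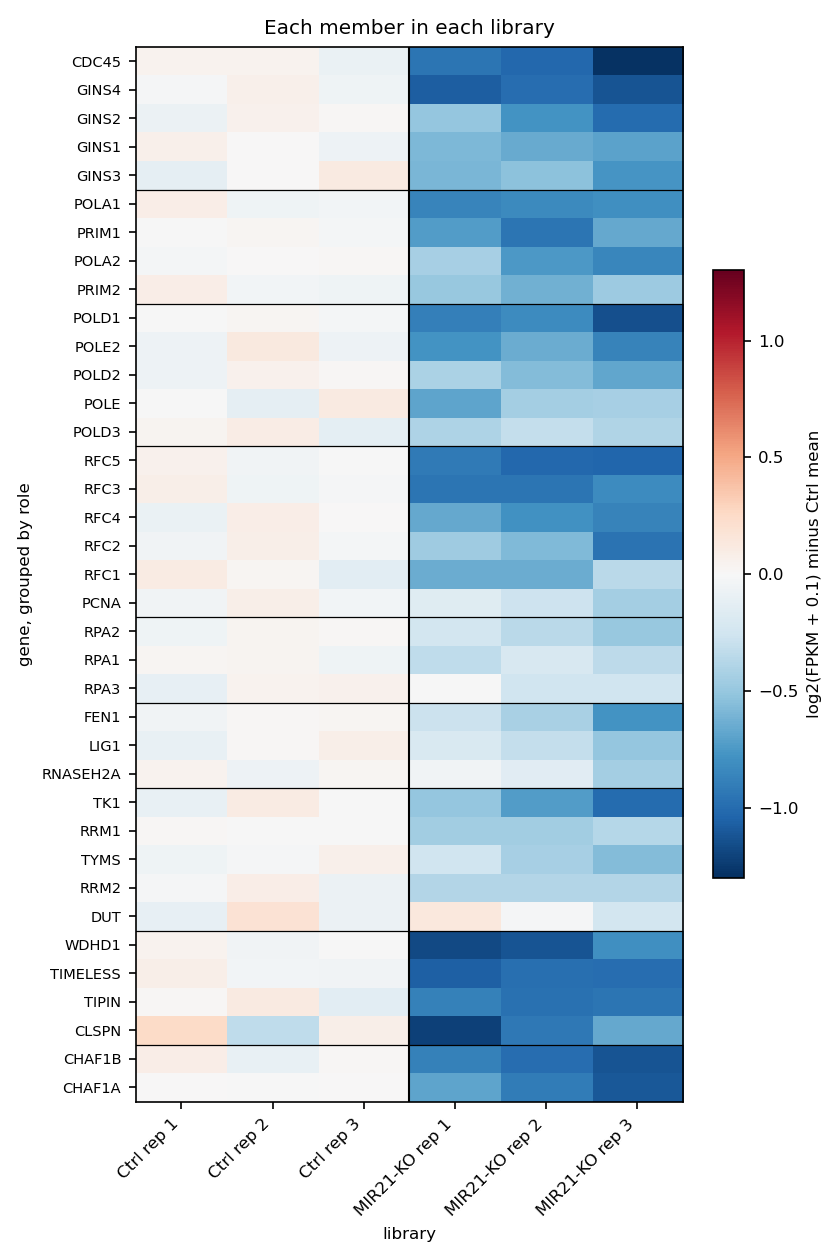
Heat map of log2(FPKM + 0.1) minus the Ctrl mean for the 37 members (rows, grouped by role) in each library (columns, Ctrl left of the line, MIR21-KO right). Ctrl columns stay near 0, and MIR21-KO columns are negative except for DUT in replicate 1, with medians of -0.59, -0.65 and -0.77.

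**Figure D4:**
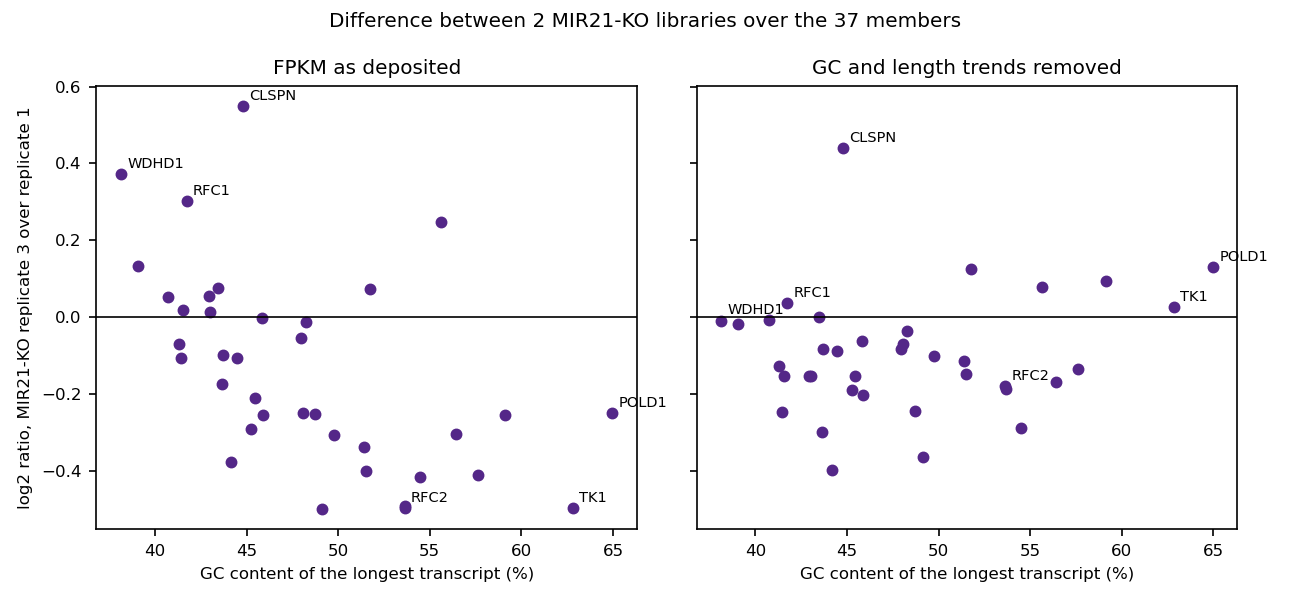
Log2 ratio of MIR21-KO replicate 3 to replicate 1 (vertical axis) against the GC content of the longest annotated transcript in percent (horizontal axis) for the 37 members, from FPKM as deposited (left) and with GC and length trends removed (right). The downward slope on the left (r = -0.55) is small on the right (r = 0.15).

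Of 28 further genes of the same processes, all tested, 6 were called lower (8.38% of all genes), 3 were called higher (7.66% of all genes) and 19 were not called, with a median log2 fold change of -0.34. The count of higher genes is thus near the background. MCM10 (chr10:13161554-13211104, plus strand), which activates the helicase, fell from 14.0, 13.4 and 12.8 FPKM to 5.92, 6.25 and 5.85 FPKM (log2FC -1.15 ± 0.08, FDR = 0.000186). Its reduction was as large as that of CDC45, and the call held in all 6 fits that left out a library. DNA2, a nuclease and helicase of Okazaki fragments and stalled forks, fell to 46.8% of Ctrl and DSCC1 of the alternative clamp loader to 53.0%. CTPS1 (CTP synthase) and POLE3 (a small epsilon subunit) fell to 76.3% and 78.3%.

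The 3 genes called higher were POLD4, TK2 and DCTD. POLD4 (chr11:67350777-67356972, minus strand), the smallest subunit of polymerase delta, rose from 5.82, 6.25 and 5.68 FPKM in Ctrl to 14.2, 13.6 and 8.88 FPKM in MIR21-KO (log2FC 1.01 ± 0.18, FDR = 0.00737). The other delta subunits POLD1, POLD2 and POLD3 stood at 51.7%, 68.3% and 77.2% of Ctrl. TK2 (chr16:66508003-66552544, minus strand), the mitochondrial thymidine kinase, rose from 5.42, 5.67 and 5.42 FPKM to 8.79, 8.68 and 8.17 FPKM (0.63 ± 0.08, FDR = 0.00181), opposite to TK1. DCTD, the deaminase that turns dCMP into dUMP, rose to 125.8% of Ctrl (0.33 ± 0.06, FDR = 0.00882). With GC and length trends removed, 4 were called higher, as ASF1A, a histone chaperone, was added (0.68, FDR = 0.00171, against 0.50 and 0.0235 on FPKM as deposited). The count of higher genes was 0 if any Ctrl library or MIR21-KO replicate 2 was omitted. With Ctrl replicates 1, 2 and 3 omitted in turn, the count of 6 lower genes became 3, 3 and 2. The share of all genes called lower in these fits was 2.41%, 2.5% and 2.3%. The count was 3 with MIR21-KO replicate 2 omitted (2.37% of all genes) and 10 with MIR21-KO replicate 3 omitted (11.3%).

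Promoters, defined as 250 bases before to 50 bases after an annotated RefSeq start site (GRCh38.p14), were at hand for 33 of the 37 members. They were searched on both strands for 4 E2F words (TTTCCCGC, TTTCGCGC, TTTGCCGC and TTTGGCGC), for CCAAT, which is bound by NF-Y, and for the words TTTGAA and TTCGAA of the cell cycle element CHR. An E2F word occurred in 14 of the 33 members (42.4%), compared with 3.99% of all 27305 genes with a promoter. CCAAT occurred in 19 members (57.6% against 39.7%) and a CHR word in 2 (6.06% against 19.5%). In none of these promoters did an E2F word overlap a CCAAT. With the exception of POLA1 and LIG1, where they began at positions -137 and -114, all E2F words began between positions -66 and 6 relative to a start site.

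Members with and without an E2F word were then set side by side. Of the 14 members with a word 8 were called lower, and of the 19 without 14 were, with median log2 fold changes of -0.66 and -0.74. Of all genes tested, 8.38% were called lower. That share was not worked out for all genes with and without a word, and the difference between the members was not tested. The sequences of 4 promoters are shown because they span the range from the most reduced member to DUT, with E2F words and CCAAT in either orientation in capitals. RFC3, with a single E2F word, fell to 53.1% of Ctrl. CDC45, with CCAAT but none of the 4 E2F words, fell to 47.0%. PCNA, with both, stood at 82.0%, and DUT, with a pair of E2F words, at 97.2%. CDC45, PCNA and DUT also have other annotated promoters, which are not shown. Those of PCNA and DUT held no E2F word. A match is only a description of these letters, and binding was not measured. Only exact copies of the words were searched, so E2F sites spelled otherwise would have been missed.
RFC3, chr13:33817899-33818198, plus strand: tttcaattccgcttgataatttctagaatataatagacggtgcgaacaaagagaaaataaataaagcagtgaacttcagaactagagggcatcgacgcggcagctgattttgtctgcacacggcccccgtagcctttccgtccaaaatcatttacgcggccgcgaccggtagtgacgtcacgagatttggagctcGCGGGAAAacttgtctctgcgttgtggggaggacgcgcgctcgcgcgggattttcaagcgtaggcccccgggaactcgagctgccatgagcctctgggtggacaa
CDC45, chr22:19479670-19479969, plus strand: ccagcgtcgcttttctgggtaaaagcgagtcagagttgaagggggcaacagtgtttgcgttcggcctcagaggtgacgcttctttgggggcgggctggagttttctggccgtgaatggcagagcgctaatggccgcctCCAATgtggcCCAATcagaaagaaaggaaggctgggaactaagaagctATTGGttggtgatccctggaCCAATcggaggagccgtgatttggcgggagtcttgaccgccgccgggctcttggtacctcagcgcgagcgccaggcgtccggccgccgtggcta
PCNA, chr20:5126573-5126872, minus strand: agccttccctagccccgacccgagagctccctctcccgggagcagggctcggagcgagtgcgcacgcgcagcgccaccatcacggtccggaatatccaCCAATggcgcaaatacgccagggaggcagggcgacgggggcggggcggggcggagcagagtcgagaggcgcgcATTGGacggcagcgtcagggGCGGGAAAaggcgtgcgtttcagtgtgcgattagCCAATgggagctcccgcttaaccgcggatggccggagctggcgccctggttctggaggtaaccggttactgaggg
DUT, chr15:48331947-48332246, plus strand: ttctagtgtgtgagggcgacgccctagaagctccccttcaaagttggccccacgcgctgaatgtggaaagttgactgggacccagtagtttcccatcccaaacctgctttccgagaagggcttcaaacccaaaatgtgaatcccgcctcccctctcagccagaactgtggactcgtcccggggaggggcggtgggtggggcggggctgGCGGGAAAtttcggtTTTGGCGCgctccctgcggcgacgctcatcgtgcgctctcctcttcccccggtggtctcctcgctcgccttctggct

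**Figure D5:**
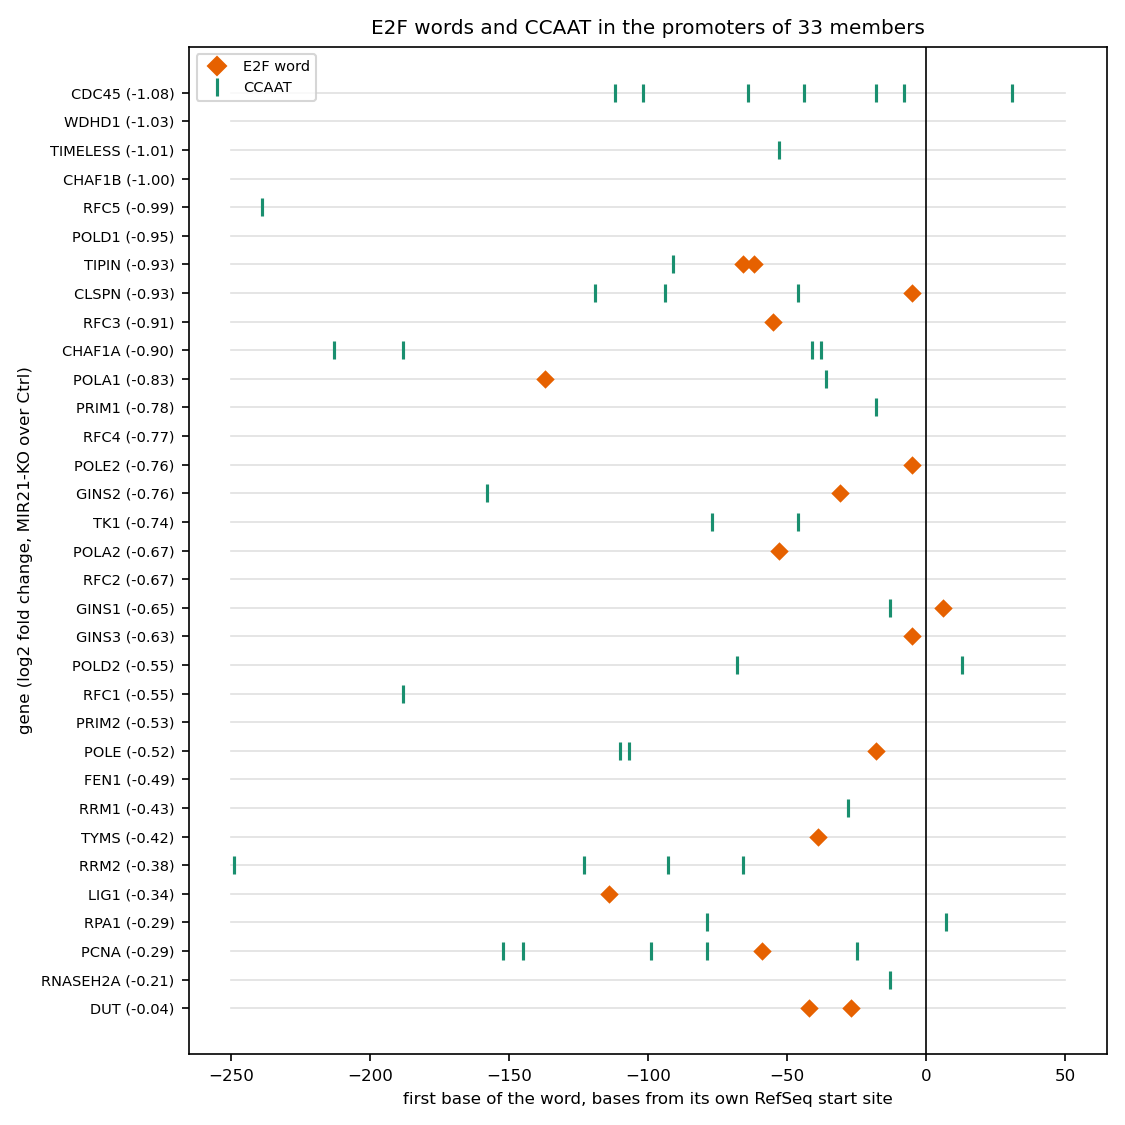
Positions of E2F words (orange diamonds) and CCAAT (green bars) relative to the RefSeq start site, in bases, for 33 members ordered by log2 fold change (in brackets). For genes with several start sites all of them are overlaid, each word relative to its own start site. E2F words occur from TIPIN (-0.93) to DUT (-0.04), and CCAAT from CDC45 (-1.08) to RNASEH2A (-0.21). The most reduced of these members, CDC45, WDHD1, TIMELESS, CHAF1B, RFC5 and POLD1, hold no E2F word.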

How the data were processed

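The authors had made strand-specific polyA libraries. According to the submitters' processing notes, cutadapt 1.14, HISAT2 2.1.0, SAMtools 1.5, featureCounts 1.5.3, edgeR 3.18.1 and build hg38 were used. The annotation and the strand setting of the counting are not given in the sources used here. The authors deposited FPKM per gene and library, on library sizes of their own, together with their own log2 fold changes, p-values and FDRs, which were not used here. FPKM times gene length, divided by the smallest step of each library, gave whole reads for 100% of values (within 0.001 reads).

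Groups and replicate numbers were taken from sample titles. After a filter of 0.5 FPKM on the mean over libraries, values were taken as log2(FPKM + 0.1) and compared by limma 3.58.1 (R 4.3.3, eBayes with trend and robust fitting, no covariate, two-sided), with calls at an FDR under 0.01 after Benjamini-Hochberg adjustment over all 16006 genes. The titles name no pairing by replicate number, and none was fitted in the reported fit. Deviations of same-numbered libraries did not correlate positively, which does not show whether these libraries were handled together. Members and gene lists were chosen with earlier results of these data known, and lists are described by counts and medians only. All members are named, and further replication genes where they were called, except for 1 that is not reported here. GENCODE 29, which matched 57836 of 58174 identifiers, gave coordinates, GC content (longest transcript) and 3′ UTRs (longest of protein-coding transcripts). RefSeq gave promoters and the miRNA. Alternatives were other pseudocounts, filters and scalings, limma without trend, voom on recovered reads, a replicate block, an FDR of 0.05, removal of GC and length trends by lowess (span 0.3), and leaving out each library. Scripts were tested on simulated data. Figures were drawn with matplotlib 3.10.9.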

Additional observations from a re-analysis of the deposited data

How the results depend on the processing

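With the exception of DUT the members' directions were kept under the alternatives tried, whereas counts at an FDR under 0.01 moved with the setting. The settings tried for single members include the reported fit at an FDR of 0.05. Over all of them, 566 comparisons kept direction and call and 85 lost the call. Another 46 gained it, 10 of them at that FDR, and 4 turned direction. All 4 concerned DUT, whose log2 fold change was 0.031 with GC and length trends removed, with or without the replicate block, and ranged from -0.13 (without MIR21-KO replicate 1) to 0.057 (without MIR21-KO replicate 3) over the fits without one library. The median of the members was -0.76 without MIR21-KO replicate 1 and lay between -0.76 and -0.62 over the 6 fits that left out a library.

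Against 23 in the reported fit, 15 members were called lower by limma without trend and robust fitting (5.61% of all genes), 17 without a filter on low values (3.1%), 29 by voom (11.9%) and 10 to 27 when a library was left out (2.3% to 11.3%). Of the further replication genes, 6 were lower and 3 higher as reported. At an FDR of 0.05, 13 were lower (16.8% of all genes), and with protein-coding genes only 11 (14.7% of those tested). By voom 11 were lower (11.9%), and with GC and length trends removed 12 (13.3%). When a library was left out, 2 to 10 were lower (2.3% to 11.3%). Higher were 4 at an FDR of 0.05 (15.2% of all genes). With GC and length trends removed 4 were higher, and without a filter 1. By limma without trend and robust fitting 1 was higher, and when a library was left out 0 to 3. Apart from the FDR of 0.05, the share of all genes called higher was not worked out for these settings. For counts that changed, the cause was not tested.

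For same-numbered libraries the correlations of deviations were -0.17, -0.02 and -0.02. Whether such libraries were handled together is not given in the sources used here. With the replicate block 8 members were called lower (1.7% of all genes), as were 1 of the further genes, and 0 of those were higher, by limma. With trends removed as well, 21 members were lower (5.8%). Median-ratio scaling and scaling by total reads shifted the median of all genes by -0.01 and -0.03 on the log2 scale.

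FDRs rest on 3 libraries per group. Each member had at least 127 reads in every library. The libraries were strand-specific, but the strand setting of the counting is not given. Whether reads of overlapping genes on opposite strands were counted apart is therefore unknown.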

Other observations

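Ratios between members that act together were computed for 10 pairs per library. Each was the log2 of the FPKM of one gene over that of the other, with 0.1 FPKM added to both. The pairs were chosen after their values were seen, and the ratios are given as descriptions. RRM1 over RRM2, the subunits of ribonucleotide reductase, was 0.34 ± 0.09 in Ctrl and 0.29 ± 0.05 in MIR21-KO (mean ± SD, n = 3), and the groups overlapped. Groups also overlapped for TIMELESS over TIPIN (1.60 ± 0.13 and 1.52 ± 0.09), for CHAF1A over CHAF1B (0.97 ± 0.09 and 1.07 ± 0.08), for POLA1 over POLA2 (0.04 ± 0.10 and -0.11 ± 0.24) and for POLE over POLE2 (0.10 ± 0.22 and 0.34 ± 0.18). By contrast, GINS1 over GINS4 was 1.13 ± 0.07 in Ctrl and 1.55 ± 0.07 in MIR21-KO without overlap. POLD1 over POLD2 was -1.09 ± 0.06 and -1.49 ± 0.13, and PRIM1 over PRIM2 was 1.35 ± 0.08 and 1.09 ± 0.06, again without overlap. Groups were also separate for the clamp PCNA over the loader subunit RFC4 (4.30 ± 0.04 and 4.78 ± 0.05) and for TYMS over DUT (1.46 ± 0.18 and 1.09 ± 0.05). Other loader subunits were not set against PCNA. Among single genes tested, groups were separate and lower in 25.2% and separate and higher in 22.8%. How often the groups are separate for other gene pairs was not worked out.

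Several members have an annotated antisense gene that shares exonic bases with them. Of 9 such antisense genes tested, 8 had a negative log2 fold change, as had 51.5% of all genes tested. The median over all 1605 antisense genes tested was -0.01. Of the 9, 2 were called lower, compared with 49 of all 1605 (3.05%). CTB.50L17.5, opposite to CHAF1A, went from 5.94, 7.19 and 5.01 FPKM in Ctrl to 2.32, 1.87 and 1.76 FPKM in MIR21-KO (log2FC -1.56, FDR = 0.0012 by limma). RP11.481J2.3, opposite to GINS3, went from 4.68, 3.97 and 4.58 FPKM to 2.69, 2.49 and 2.59 FPKM (-0.74, FDR = 0.0034). RP11.360L9.7, which shares 21.2% of the exonic bases of GINS4, had at most 39 reads in a library and was not called (-1.76, FDR = 0.0112 by limma). As the strand setting of the counting is not given, it is unknown whether reads of such a pair were counted apart where the exons overlap. Of 23 pseudogenes named after members, 20 had no read in any library, and the highest mean was 3.5 reads.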
